A study of Mus musculus with 24 samples.

Results

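Out of the 55450 genes in the count table, 10 are described here: Enc1, Zfp532, Rangap1, Pde4b, Srgap3, Arl5a, Ppm1k, Zmat1, Abcd2 and Mysm1. They were chosen because their transcript level differed between Thumpd1 knockout (KO) and wild-type (WT) mice in each of 3 tissues (cerebellum, liver and testes), and each symbol matched 1 row of the table. The KO effect in the 3 tissues is therefore what chose these genes, so its sizes are given below as a description and without a test. Each genotype gave 4 libraries per tissue, 24 in all, and replicates 1 to 4 are WT and 5 to 8 KO. KO mice carried a Thumpd1 gene disrupted with Cas9 and a pair of guide RNAs that cut exons 1 and 4 in C57BL/6N eggs, and the line was kept on a C57/BL6 background. Animals were 6 to 12 weeks old and could be of either sex, with littermates of the same age as controls, and the deletion was present in all cells of the animal. Nothing in the labels says which libraries of different tissues came from 1 animal, and p-values measure the spread between these libraries only.

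Thumpd1 is a tRNA-binding adaptor that brings the acetyltransferase Nat10 to the tRNAs for leucine and serine, where a cytidine of the D-arm is converted to N4-acetylcytidine. Codons of the same amino acid are read by different tRNAs of its family, and a coding sequence can hold them in very unequal shares. The 10 genes belong to no single pathway. They encode signalling and cytoskeletal proteins (Enc1, Srgap3, Pde4b), a nuclear transport factor (Rangap1), proteins of the Golgi, the mitochondrion and the peroxisome (Arl5a, Ppm1k, Abcd2) and chromatin or zinc-finger proteins (Mysm1, Zfp532, Zmat1).

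The 10 genes differed in how they write leucine. In the set named U/A-rich here (TTA, TTG, CTT and CTA) each gene was scored by the share that these codons took of all its leucine codons, in its longest coding sequence of the GENCODE M21 annotation. Below are 50-codon stretches from 2 genes with a share above the median of the tested genes and 3 with a share below it. Each is the stretch of its gene with the most such codons, 150 bases read 5′ to 3′ in frame, with U/A-rich leucine codons in capitals. Picked in this way, they show where these codons cluster and not the share of the whole gene. Of the leucine codons printed, 4 of 5 are U/A-rich in Srgap3 and 7 of 9 in Abcd2. GC at codon position 3 and the direction of the KO effect are set beside the share of the whole gene further on.
Zmat1, codons 268 to 317: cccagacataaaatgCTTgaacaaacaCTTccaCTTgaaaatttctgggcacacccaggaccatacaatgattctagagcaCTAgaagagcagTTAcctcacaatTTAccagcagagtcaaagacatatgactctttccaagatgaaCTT
Abcd2, codons 655 to 704: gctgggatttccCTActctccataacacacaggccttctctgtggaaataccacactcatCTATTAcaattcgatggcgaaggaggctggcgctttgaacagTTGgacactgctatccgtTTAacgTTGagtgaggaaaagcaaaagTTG
Enc1, codons 91 to 140: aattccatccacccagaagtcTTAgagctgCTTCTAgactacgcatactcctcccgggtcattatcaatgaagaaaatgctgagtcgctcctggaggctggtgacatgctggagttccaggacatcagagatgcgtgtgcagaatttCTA
Rangap1, codons 54 to 103: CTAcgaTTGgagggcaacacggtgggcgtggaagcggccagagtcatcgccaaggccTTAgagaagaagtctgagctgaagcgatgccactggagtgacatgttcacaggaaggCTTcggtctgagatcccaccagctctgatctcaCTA
Srgap3, codons 483 to 532: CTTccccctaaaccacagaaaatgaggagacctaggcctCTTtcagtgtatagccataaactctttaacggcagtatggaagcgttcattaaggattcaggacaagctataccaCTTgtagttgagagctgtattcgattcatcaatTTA

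U/A-rich codons made 55 of 71 leucine codons in Mysm1 (77.5%), 20 of 30 in Zmat1 (66.7%) and 42 of 80 in Abcd2 (52.5%). Enc1 held 18 of 65 (27.7%), Rangap1 17 of 75 (22.7%) and Srgap3 21 of 97 (21.6%). The median over 10307 genes with a coding sequence that were tested in all 3 tissues was 40.0%, and Mysm1 stood above 98.2% of them. GC content at codon position 3 ran the other way, at 36.9% in Mysm1 and 37.1% in Zmat1 against 66.6% in Srgap3, with a median of 60.4% over the same genes. Arl5a (58.8% U/A-rich, 47.5% GC), Ppm1k (54.3% and 50.5%) and Abcd2 (49.1% GC) lay on the side of Mysm1, and Zfp532 (38.2% and 66.1%) and Pde4b (48.1% and 57.5%) between the extremes in leucine codons.

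The targeted gene was examined first. Thumpd1 lay at 22.4 ± 1.06 CPM (counts scaled to a common library total) in WT cerebellum (SD, n = 4) and fell to between 0 and 0.113 CPM in KO. WT liver held 9.74 ± 0.401 and KO liver at most 0.106 CPM, while testes went from 25.2 ± 0.840 to 0.955 ± 0.200 CPM (SD, n = 4). Every library thus matched its label. Total counts per library ranged from 16353797 to 37889615, with the lowest depths in KO cerebellum. Tissue markers were at high levels where they belonged: 8 granule cell genes summed to 4482 CPM or more in WT cerebellum, 8 hepatocyte genes to 48066 CPM or more in WT liver and 8 elongating spermatid genes to 14475 CPM or more in WT testes.

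Libraries stood apart within their groups. Summed choroid plexus genes (6 listed and tested, 0 called) lay at 1052 and 1078 CPM in cerebellum WT replicates 1 and 2 and at 362 CPM in both KO replicates 7 and 8, against 17.8 to 23.5 CPM in the other 4. The hepatocyte list, which shares the transthyretin gene Ttr with that list, split the same libraries (937, 964, 319 and 315 CPM against 2.65 to 4.34 CPM). In liver the hepatocyte sum was 78249 and 84676 CPM in KO replicates 7 and 8, against 59383 and 60851 CPM in KO replicates 5 and 6 and 48066 to 62179 CPM in WT. Across all tested genes, 21 of the 24 libraries were nearest to the library of consecutive number (1 and 2, 3 and 4, 5 and 6, 7 and 8) among the others of their group. The paper describes the RNA sequencing of these tissues as n = 4 biological replicates. The labels do not name the animal of each library. If libraries of consecutive number did share an animal, p-values that treat them as separate would be too small.

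The genes were picked from a much larger number tested. Each tissue was compared on its 8 libraries with limma-voom after quantile normalization, and a gene was called at a Benjamini-Hochberg adjusted p under 0.05. Cerebellum had 6.44% of 16225 genes called, liver 5.91% of 12816 and testes 20.5% of 19329. Among the 11112 genes tested in all 3 tissues, 15 were called in every one (0.135%), 282 in exactly 2 tissues and 2714 in 1. The 15 were the 10 genes, Thumpd1 itself, Asns (asparagine synthetase), Col1a2 (a collagen chain), Aox1 (an aldehyde oxidase) and Peg10 (an imprinted gene of retroviral origin). Of these 11112, the share called was 5.77% for cerebellum, 5.03% for liver and 19.1% for testes. Several stood close to the limit. The largest of the 3 limma adjusted p values was 0.0494 for Mysm1 and 0.0471 for Arl5a, while Kdm5a (0.0502) and Ddr2 (0.0503) fell just outside. The number of the 10 genes called in all 3 tissues dropped to 2 without the CPM filter and to 1 (Arl5a) in a single fit of all 24 libraries. Over the 9 alternatives that were run in all 3 tissues on every library, Rangap1 and Srgap3 stayed called in all 3 tissues in 7, and Zmat1 and Mysm1 in 3. With the counts of consecutive libraries summed, which leaves 2 against 2, none of the 10 was called in all 3 tissues, and 28 of the 30 calls of the 10 genes were lost. Over all genes, its calls numbered 48 for cerebellum, 10 for liver and 1 for testes.

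The cerebellum changes were also fitted within the libraries that held choroid plexus transcripts and within those that did not, 2 against 2 each. All 10 genes had the same sign in both. Enc1 stood at 1.40 ± 0.0978 with and at 2.08 ± 0.130 without these transcripts (SE, log2). Arl5a (-0.35 ± 0.0629 and -0.12 ± 0.0753, SE, log2) and Zfp532 (0.24 ± 0.0527 and 0.09 ± 0.0589, SE, log2) were larger with them, and Mysm1 (-0.10 ± 0.0515 and -0.25 ± 0.0692, SE, log2) without. These are the contrasts that chose the genes, so the values are a description.

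Directions differed between tissues in most of the set. KO was higher in 4 and lower in 6 of the 10 genes for cerebellum (3.93% and 2.51% of all genes were called so), higher in 7 and lower in 3 for liver (2.79% and 3.12%), and higher in 9 and lower in 1 for testes (9.74% and 10.7%). Enc1 and Zfp532 were higher in KO in all 3 tissues, 5 genes (Arl5a, Ppm1k, Zmat1, Abcd2 and Mysm1) were lower in cerebellum and higher in liver and testes, and the other 3 each had a pattern of their own. The WT range and the KO range were apart for 8 of the 10 genes in cerebellum, where 13.8% of all genes tested did not overlap, and in all 10 genes in liver (12.7% of all genes) and testes (28.6%). The choice of the genes used these same contrasts, so nothing is read from the counts. The median absolute log2 change of the set was 0.211 (cerebellum), 0.552 (liver) and 0.398 (testes). Called genes as a whole had medians of 0.263, 0.465 and 0.394, and all tested genes 0.0948, 0.138 and 0.175. Bulk tissue cannot tell fewer cells of a type from less RNA per cell.

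**Figure D1:**
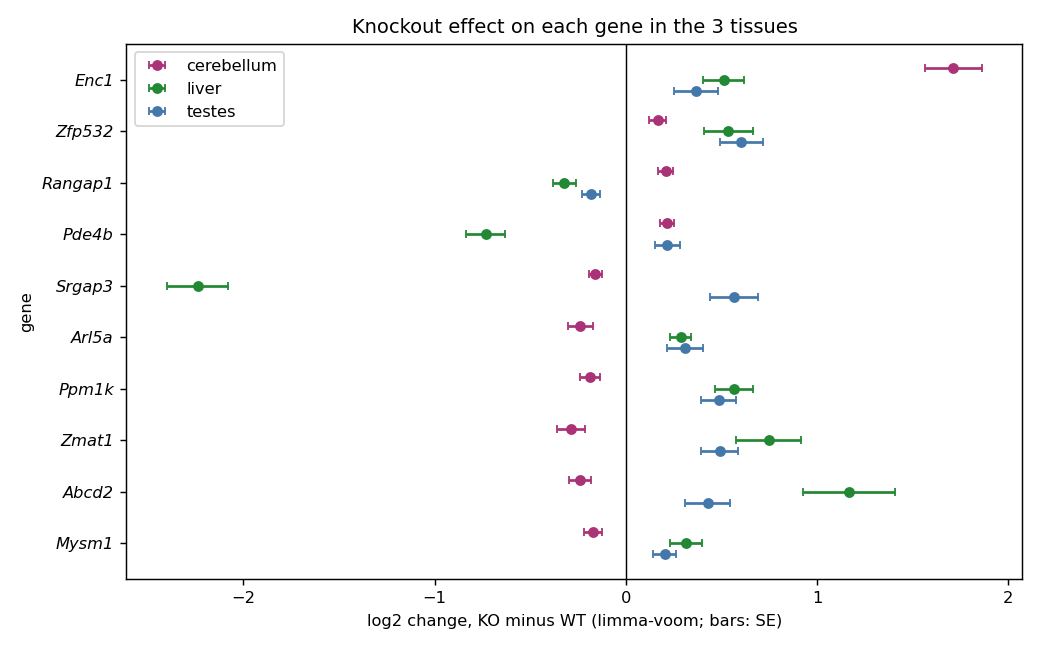
Change of each of the 10 genes between KO and WT (horizontal axis, log2 scale, points with SE from limma-voom on 4 against 4 libraries), with 1 colour per tissue. Enc1 in cerebellum (1.71) and Srgap3 in liver (-2.24) stand far from the rest, and the lower 5 genes lie left of 0 in cerebellum and right of 0 in liver and testes.

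Enc1 (ENSMUSG00000041773.8, chromosome 13, 97241105 to 97253034, plus strand of mm10) encodes a kelch-repeat protein that binds actin and is abundant in forebrain neurons. In cerebellum the WT libraries held 7.49, 7.72, 7.35 and 5.61 CPM and the KO libraries 28.7, 27.4, 20.1 and 20.1 CPM. The KO libraries were all far above WT, with a fitted log2 change of 1.71 ± 0.148 (SE), the largest of the set in that tissue. Liver went from 8.53, 7.54, 8.56 and 6.63 CPM to 9.97, 9.97, 12.9 and 11.4 CPM, with a log2 change of 0.51 ± 0.105 (SE). In testes the WT values were 28.4, 31.6, 28.7 and 28.3 CPM and the KO values 33.4, 33.95, 49.4 and 44.8 CPM, a log2 change of 0.37 ± 0.114 (SE). Here KO replicates 5 and 6 lay just above WT and replicates 7 and 8 well above it.

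Markers of other brain regions moved with Enc1 in cerebellum. The summed level of 16 midbrain and forebrain genes ran from 25.8 to 34.7 CPM in WT and from 45.0 to 68.4 CPM in KO. Of the 7 genes of that list that were tested, 3 were called higher (3.93% of all genes), and the marker Foxa2 was at 0. KO replicates 5 and 6, with the highest Enc1, also had the highest marker sums (68.4 and 62.5 CPM, against 51.9 and 45.0 CPM in replicates 7 and 8). The 8 granule cell genes went the other way, from 4482 to 4529 CPM in WT to 3982 to 4245 CPM in KO. Immediate early genes split the KO libraries the same way, at 269.7 and 252 CPM in replicates 5 and 6 and at 153 and 151 CPM in 7 and 8, against 140 to 157 CPM in WT, and 5 of 11 tested were called higher and 0 lower (3.93% and 2.51% of all genes). The part of any of these lists in the Enc1 change was not tested.

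Zfp532 (ENSMUSG00000042439.13, chromosome 18, 65579912 to 65689443, plus strand) encodes a zinc-finger protein related to Zfp592 and Zfp687. Cerebellum values were 112, 115, 119.6 and 113 CPM in WT and 126, 120.0, 139 and 129.6 CPM in KO. This was a small shift of 0.17 ± 0.0450 (SE, log2), with KO replicate 6 at the upper edge of WT. Liver rose from a low level, 7.22, 7.38, 9.64 and 8.89 CPM in WT and 11.02, 12.9, 12.9 and 11.3 CPM in KO, by 0.54 ± 0.130 (SE, log2). Testes gave 21.03, 20.98, 19.1 and 18.9 CPM in WT and 27.7, 27.2, 40.3 and 35.1 CPM in KO, or 0.60 ± 0.111 (SE, log2). As for Enc1, replicates 7 and 8 were the higher ones. Exons of Zfp532 overlap antisense transcripts over 634 and 1943 bases, and the strand setting of the counting is not given in the sources used here, so its level is uncertain to that extent.

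Rangap1 (ENSMUSG00000022391.16, chromosome 15, 81704248 to 81745530, minus strand), the GTPase-activating protein of Ran in nuclear transport, was higher in KO cerebellum and lower in KO liver and testes. WT cerebellum held 63.2, 64.6, 64.9 and 63.3 CPM and KO cerebellum 76.1, 74.4, 75.6 and 71.1 CPM. The log2 change was 0.21 ± 0.0389 (SE), and the 4 WT libraries spanned less than their distance to KO. Liver fell from 61.6, 59.4, 54.8 and 51.8 CPM to 43.7, 46.7, 43.97 and 42.4 CPM (-0.32 ± 0.0616, SE, log2). Testes, where the gene was most abundant, had 269.7, 259, 271 and 272 CPM in WT and 241, 238, 213 and 236 CPM in KO (-0.18 ± 0.0464, SE, log2). KO replicate 7 was the lowest of the 8. Rangap1 shares 65 exonic bases with Zc3h7b on the other strand.

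Pde4b (ENSMUSG00000028525.16, chromosome 4, 102087543 to 102607259, plus strand), a phosphodiesterase that degrades cAMP, differed from Rangap1 in testes. In cerebellum WT values were 104.7, 104, 97.7 and 103 CPM and KO values 115, 117, 121 and 119.5 CPM, with a log2 change of 0.21 ± 0.0372 (SE). Liver showed the opposite, 29.02, 25.6, 20.3 and 20.2 CPM in WT and 13.3, 13.1, 13.9 and 15.8 CPM in KO (-0.73 ± 0.102, SE, log2). The WT liver libraries were themselves split, with replicates 1 and 2 above 3 and 4. Testes had 18.4, 17.5, 18.3 and 19.3 CPM in WT and 22.996, 22.5, 24.002 and 21.9 CPM in KO (0.22 ± 0.0659, SE, log2).

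Srgap3 (ENSMUSG00000030257.16, chromosome 6, 112717971 to 112947266, minus strand), a Rac GTPase-activating protein of the Slit and Robo pathway that shapes neuronal membranes, had the strongest loss. Liver fell from 11.01, 9.39, 10.5 and 9.34 CPM in WT to 2.25, 1.49, 2.59 and 2.25 CPM in KO, a log2 change of -2.24 ± 0.159 (SE), to 0.213 of the WT mean. No KO liver library came near the WT range. Cerebellum, where Srgap3 was most abundant, held 573, 590.0, 598 and 584 CPM in WT and 534, 515, 521 and 498 CPM in KO (-0.16 ± 0.0319, SE, log2). Testes rose from 61.8, 59.1, 52.3 and 54.8 CPM to 71.5, 72.5, 102 and 106 CPM (0.57 ± 0.128, SE, log2), again with replicates 7 and 8 above 5 and 6. The exons overlap a low-level noncoding gene on the other strand (Gm44081) over 150 bases.

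In testes the split between KO replicates ran along the marker sums. Summed Sertoli cell genes (12 listed, 11 tested, 8 called higher, against 9.74% of all genes) lay between 1121 and 1333 CPM in the WT libraries. In KO they reached 1432 and 1478 CPM in replicates 5 and 6, and 2072 and 1604 CPM in replicates 7 and 8. Elongating spermatid genes (8 listed and tested, 5 called lower, against 10.7% of all genes) fell from 14475 to 15265 CPM in WT to 13522 and 13378 CPM in replicates 5 and 6 and to 10895 and 11492 CPM in 7 and 8. None of these markers was at 0. Enc1, Zfp532, Srgap3, Abcd2 and, by a small margin, Mysm1 thus had their highest levels in the libraries with the most Sertoli and the fewest spermatid transcripts, and the part of cell composition in their change was not tested.

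**Figure D2:**
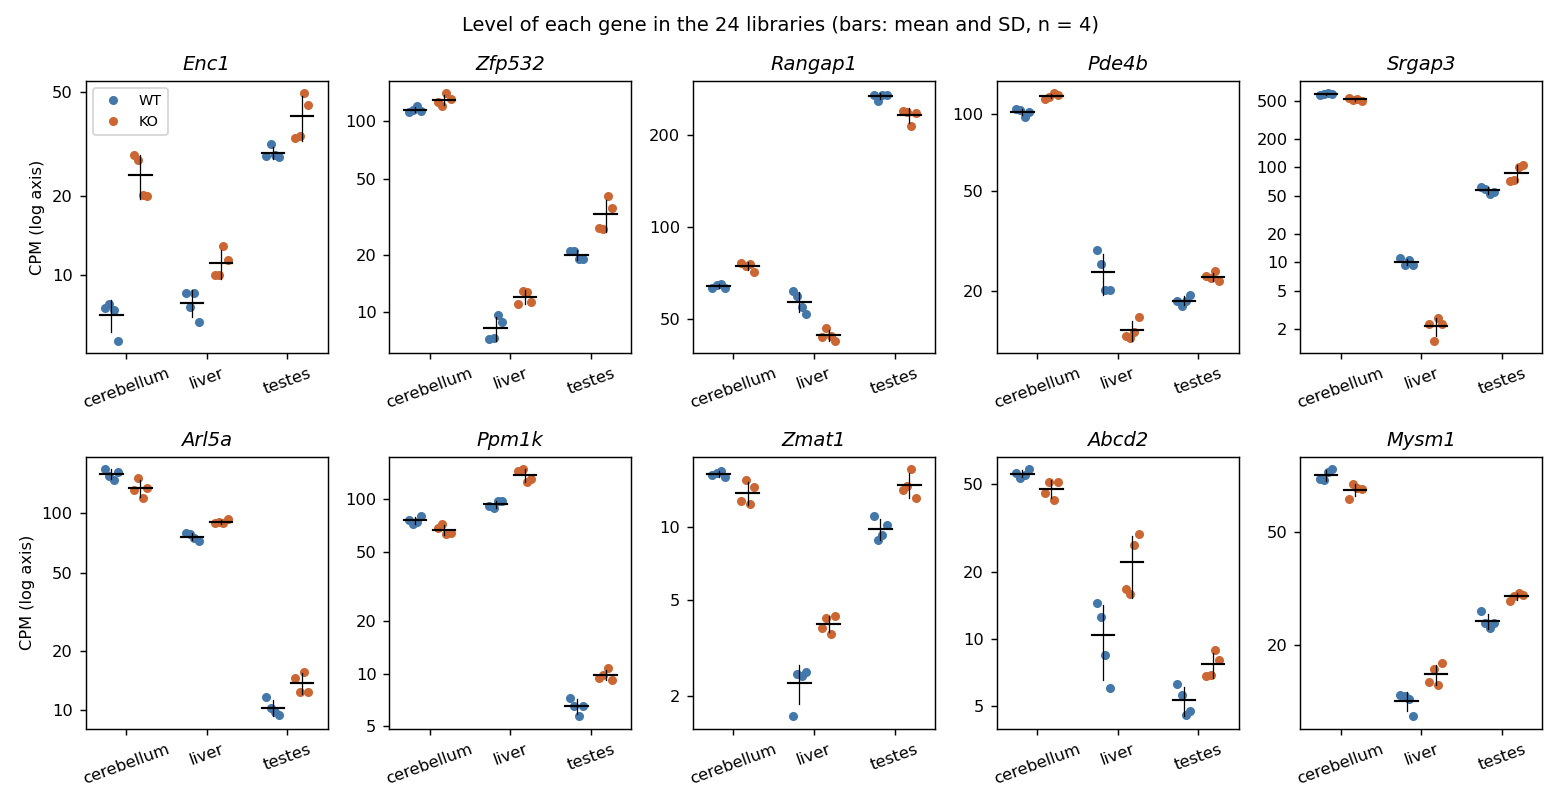
Level of each gene in all 24 libraries (vertical axis, CPM, log scale), WT in blue and KO in orange, with the mean and SD of 4 libraries as black bars. WT and KO are apart in every panel and tissue except for Arl5a and Ppm1k in cerebellum, and KO testes split into a lower and a higher pair for Enc1, Zfp532, Srgap3 and Abcd2.

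The remaining 5 genes shared 1 pattern, lower in KO cerebellum and higher in KO liver and testes. Arl5a (ENSMUSG00000036093.7, chromosome 2, 52397951 to 52424901, minus strand) is a small GTPase that recruits the GARP tethering complex to the trans-Golgi. Its cerebellum values were 167, 155, 147 and 162 CPM in WT and 131, 151, 119 and 134 CPM in KO (-0.24 ± 0.0648, SE, log2). KO replicate 6 lay inside the WT range. In liver, 78.9, 78.8, 74.5 and 72.4 CPM in WT stood against 89.2, 89.99, 89.1 and 93.9 CPM in KO (0.29 ± 0.0540, SE, log2), and in testes 11.7, 10.3, 9.76 and 9.43 CPM against 14.6, 12.3, 15.6 and 12.3 CPM (0.31 ± 0.0941, SE, log2).

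Ppm1k (ENSMUSG00000037826.5, chromosome 6, 57506502 to 57535468, minus strand) encodes the mitochondrial phosphatase that activates the branched-chain ketoacid dehydrogenase, the step that commits leucine, isoleucine and valine to breakdown. Liver rose from 91.3, 88.6, 97.2 and 97.4 CPM to 144, 149, 125 and 129.8 CPM (0.57 ± 0.0977, SE, log2) and testes from 7.26, 6.52, 5.68 and 6.54 CPM to 9.47, 9.83, 10.8 and 9.20 CPM (0.49 ± 0.0893, SE, log2). All KO libraries lay above WT in both tissues. Cerebellum held 75.6, 72.1, 74.1 and 80.2 CPM in WT and 68.2, 72.1, 62.7 and 64.2 CPM in KO (-0.19 ± 0.0506, SE, log2), where replicate 6 again reached the WT range.

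Abcd2 (ENSMUSG00000055782.9, chromosome 15, 91145871 to 91191799, minus strand) carries very long-chain fatty acyl-CoA into peroxisomes and had the largest change of the 5. Liver went from 14.6, 12.5, 8.43 and 6.002 CPM in WT to 16.7, 15.9, 26.4 and 29.7 CPM in KO (1.17 ± 0.243, SE, log2). Both groups were spread widely, and the highest WT library lay just under the lowest KO library. KO replicates 7 and 8, far above 5 and 6, were also the libraries with the highest hepatocyte sums, and with the highest sums of liver endothelial genes (284 and 282 CPM against 209 and 214 CPM) and stellate genes (287 and 292 CPM against 211 and 219 CPM). The part of these in the Abcd2 change was not tested. Cerebellum fell from 55.9, 53.4, 55.2 and 58.4 CPM to 45.6, 51.1, 42.3 and 51.2 CPM (-0.24 ± 0.0598, SE, log2), and testes rose from 6.29, 5.59, 4.55 and 4.71 CPM to 6.81, 6.89, 8.93 and 8.06 CPM (0.43 ± 0.118, SE, log2).

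Mysm1 (ENSMUSG00000062627.9, chromosome 4, 94942040 to 94979100, minus strand), a deubiquitinase of histone H2A needed for blood cell development, had small changes. Cerebellum gave 76.8, 76.1, 81.4 and 83.5 CPM in WT and 65.5, 73.7, 71.7 and 70.9 CPM in KO (-0.17 ± 0.0469, SE, log2). Liver held 13.3, 13.2, 12.9 and 11.2 CPM in WT and 14.8, 16.5, 14.5 and 17.2 CPM in KO (0.32 ± 0.0828, SE, log2), and testes 26.4, 23.8, 22.9997 and 23.8 CPM and 28.5, 29.7, 30.6 and 29.99 CPM (0.20 ± 0.0611, SE, log2). Groups did not overlap in any tissue, though the gaps were narrow. Zmat1 (ENSMUSG00000052676.16, chromosome X, 134971372 to 135009209, minus strand), a matrin-type zinc-finger gene, was the least abundant of the 10 in WT liver. Its liver values were 1.64, 2.46, 2.43 and 2.52 CPM in WT and 3.81, 4.19, 3.62 and 4.26 CPM in KO (0.75 ± 0.171, SE, log2). Its cerebellum values were 16.4, 16.8, 17.1 and 16.1 CPM and 12.8, 15.6, 12.4 and 14.7 CPM (-0.29 ± 0.0747, SE, log2), and those of testes 11.1, 8.85, 9.23 and 10.1 CPM and 14.3, 14.8, 17.4 and 13.2 CPM (0.49 ± 0.0964, SE, log2).

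These 5 genes also had a coding property in common. The choice did not read it, but the calls that chose the genes moved with it, so it is given as a description. When the 10307 genes were divided into quartiles by GC at codon position 3, all 5 fell in the lowest quartile (20.9% to 51.0% GC), Pde4b in quartile 2, Enc1, Rangap1, Srgap3 and Zfp532 in quartile 3 and none in the highest. By the share of U/A-rich leucine codons, 4 of the 5 fell in the highest quartile, while Abcd2 lay in quartile 3 together with Pde4b. The transcriptome as a whole moved the same way with GC at codon position 3. In the lowest GC quartile the median log2 change was -0.08 in cerebellum and 0.08 both in liver and in testes, and in the highest it was 0.06, -0.07 and 0.03. Calls followed: in the lowest quartile 26 genes were called higher and 149 lower for cerebellum, 64 and 11 for liver, and 524 and 69 for testes. The highest quartile had 139 higher and 18 lower in cerebellum and 46 and 148 in liver. The signs lower, higher and higher in cerebellum, liver and testes, without regard to calls, were held by 38.4% of genes in the lowest quartile and by 16.03%, 8.66% and 5.32% in the next 3. With 17.1% of all genes it was the most frequent of the 8 sign patterns.

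**Figure D3:**
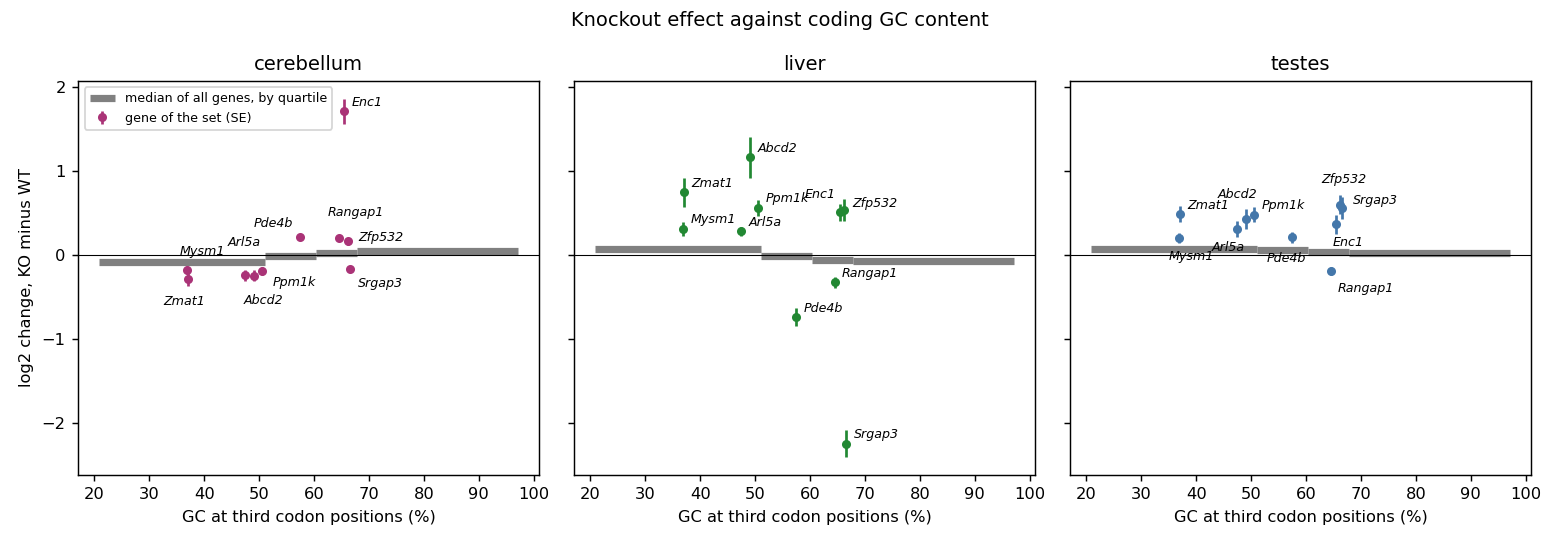
Change between KO and WT (vertical axis, log2, points with SE) against GC content at codon position 3 (horizontal axis, %) for the 10 genes in each tissue, with the median of all 10307 genes in each GC quartile as grey bars. The 5 genes at or below 51% GC lie below 0 in cerebellum and above 0 in liver and testes, on the same side as the grey bar of their quartile.

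The relation was also present between libraries of 1 genotype. For each library the deviation of log2(CPM + 1) from the tissue mean was correlated with GC at codon position 3 across the 10307 genes, which share the library and its depth. In cerebellum Pearson's r was 0.35, 0.52 and 0.17 in KO replicates 5, 7 and 8, but -0.24 in KO replicate 6, within the WT values of -0.43 to 0.07. KO replicate 6 was the library in which Arl5a, Ppm1k, Zmat1 and Mysm1 had their highest KO level, and replicate 7, with the highest r, had the lowest KO level of Arl5a, Ppm1k, Zmat1 and Abcd2. Mysm1 was lowest in replicate 5, and Abcd2 about equal in replicates 6 and 8. In liver KO replicate 7 stood apart (r = 0.14, against -0.19 to -0.27 in the other KO libraries and 0.05 to 0.26 in WT). Ppm1k, Zmat1, Mysm1 and, narrowly, Arl5a had their lowest KO liver level in that library, while Abcd2 was higher there (26.4 CPM) than in replicates 5 and 6 (16.7 and 15.9 CPM). In testes r ran from -0.48 to 0.22 in KO and from -0.28 to 0.39 in WT. There the match was mixed. All 5 genes had their highest KO level in replicate 7 (r = 0.14), above replicates 5 and 6 (r = -0.48 and -0.38). Replicate 8, with the highest KO r (0.22), had the lowest KO level of Ppm1k, Zmat1 and, narrowly, Arl5a. Abcd2 and Mysm1 were higher in replicate 8 than in replicates 5 and 6.

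A fit in which the trend of each library on GC was removed first was chosen after seeing the data and, being made on the contrasts that chose the genes, is given as a description. Mysm1 moved to -0.06 ± 0.0438 in cerebellum, 0.19 ± 0.0816 in liver and 0.15 ± 0.0667 in testes (SE, log2), and was no longer called in any of them, though most of the change was lost in cerebellum alone. Zmat1 moved to -0.18 ± 0.0632 (SE, log2) in cerebellum and was not called there. Srgap3 in liver stood at -2.17 ± 0.150, Enc1 in cerebellum at 1.66 ± 0.145, Abcd2 in liver at 1.12 ± 0.243 and Ppm1k in liver at 0.52 ± 0.0904 (SE, log2). In cerebellum Arl5a became -0.18 ± 0.0509, Ppm1k -0.15 ± 0.0415 and Abcd2 -0.19 ± 0.0476 (SE, log2). The source of the GC trend was not tested.

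Levels in WT animals gave a comparison that did not choose the genes. Contrasts between WT tissues (limma-voom with TMM factors over all 24 libraries, adjusted over 22678 genes) were called for 29 of the 30 pairs of gene and tissues, where 85.3% of all genes were called between cerebellum and liver, 89.7% between testes and liver and 89.3% between testes and cerebellum. Per kilobase of exon, Srgap3 was highest in cerebellum at 59.5 ± 1.06 CPM (SD, n = 4), followed by testes at 5.78 ± 0.431 CPM and liver at 1.02 ± 0.0839 CPM. Its log2 difference between cerebellum and liver was 4.67 ± 0.126 with TMM factors (SE, limma adjusted p = 1.35e-19) and 5.86 without. Zmat1 had the same order, cerebellum, testes, liver. Zfp532 was highest in cerebellum, and its difference between testes and liver (0.35 ± 0.135, SE, log2, limma adjusted p = 0.0188) lost its call without liver WT replicate 1 or 2 (limma adjusted p = 0.0809 and 0.069) and was 1.28 without TMM factors. Zmat1 held 3.08 ± 0.0806, 1.82 ± 0.186 and 0.420 ± 0.0769 CPM per kilobase in cerebellum, testes and liver (SD, n = 4). Pde4b and Abcd2 were ordered cerebellum, liver, testes, and Abcd2 stood at 9.37 ± 0.351, 1.75 ± 0.654 and 0.889 ± 0.137 CPM per kilobase (SD, n = 4).

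Testes was the highest tissue for Rangap1, at 55.1 ± 1.24 CPM per kilobase (SD, n = 4), and for Enc1, at 6.18 ± 0.330 CPM per kilobase (SD, n = 4). It was the lowest for Arl5a (1.90 ± 0.181 CPM per kilobase) and Ppm1k (1.08 ± 0.107 CPM per kilobase), each SD with n = 4. Ppm1k was highest in liver at 15.5 ± 0.724 CPM per kilobase (SD, n = 4), with a log2 difference of -4.78 ± 0.0817 between testes and liver with TMM factors (SE, limma adjusted p = 2.22e-23) and -3.85 without. Mysm1 was highest in cerebellum, and its testes and liver levels did not differ beyond their spread with TMM factors (0.00 ± 0.0679, SE, log2, limma adjusted p = 0.977). The scaling matters between tissues. Without TMM factors the median of all genes in the contrast of cerebellum with liver moved from -0.04 to 1.16. Arl5a and Rangap1 then changed sign between these tissues, Enc1 was not called between them (limma adjusted p = 0.503), and Mysm1 was higher in testes than in liver by 0.94, so no order is given for those pairs.

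**Figure D4:**
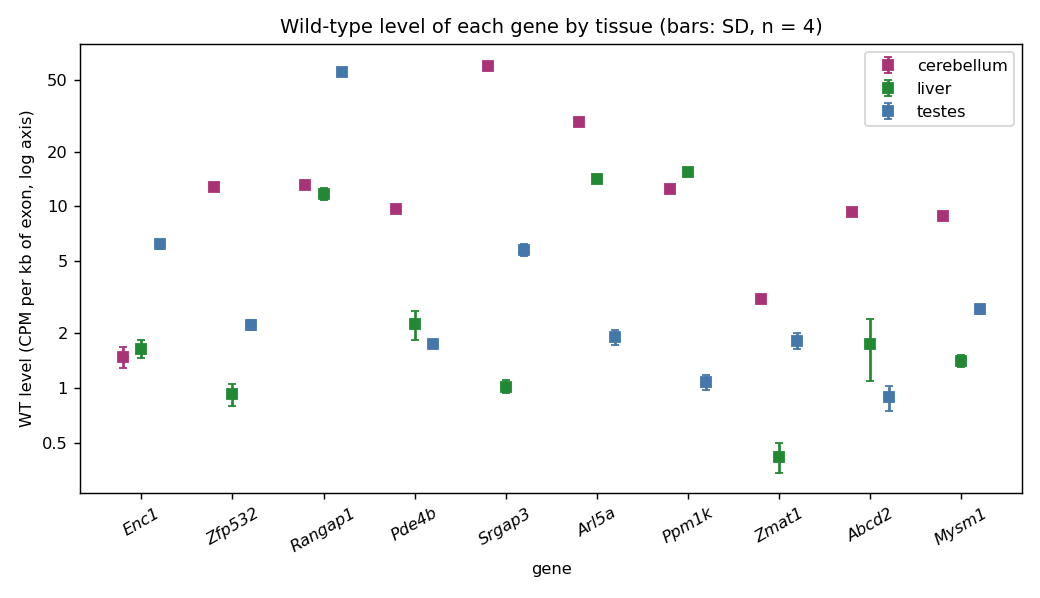
WT level of each gene by tissue (vertical axis, CPM per kilobase of exon, log scale; points are means and bars SD of 4 libraries). Cerebellum is the top point for Zfp532, Pde4b, Srgap3, Zmat1, Abcd2 and Mysm1 on this scale, testes for Enc1 and Rangap1, and liver for Ppm1k. Cerebellum and liver are not ordered for Arl5a, Enc1 and Rangap1, since their difference turned or lost its call with the scaling.

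Promoter sequences of 7 of the 10 genes were matched in RefSeq (GRCm38.p6), with 10 start sites in all. The 200 bases before the start site are printed for 4 of the genes with the shared pattern, since they moved together, in the direction of transcription with CCAAT or ATTGG and GGGCGG or CCGCCC in capitals.
Arl5a, chr2:52424875-52425074, minus strand: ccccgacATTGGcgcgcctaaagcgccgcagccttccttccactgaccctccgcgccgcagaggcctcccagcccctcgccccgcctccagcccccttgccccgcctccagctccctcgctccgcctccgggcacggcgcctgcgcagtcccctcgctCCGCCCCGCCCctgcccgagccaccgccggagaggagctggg
Ppm1k, chr6:57535488-57535687, minus strand: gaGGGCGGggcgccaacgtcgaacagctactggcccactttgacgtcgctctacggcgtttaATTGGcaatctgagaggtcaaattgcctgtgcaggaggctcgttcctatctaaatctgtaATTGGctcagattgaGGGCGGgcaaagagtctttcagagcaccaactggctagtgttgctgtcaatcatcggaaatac
Zmat1, chrX:135009210-135009409, minus strand: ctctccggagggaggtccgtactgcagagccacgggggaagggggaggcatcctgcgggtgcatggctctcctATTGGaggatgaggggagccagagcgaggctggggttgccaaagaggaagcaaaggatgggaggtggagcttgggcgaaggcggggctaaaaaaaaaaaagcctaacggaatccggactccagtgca
Mysm1, chr4:94979101-94979300, minus strand: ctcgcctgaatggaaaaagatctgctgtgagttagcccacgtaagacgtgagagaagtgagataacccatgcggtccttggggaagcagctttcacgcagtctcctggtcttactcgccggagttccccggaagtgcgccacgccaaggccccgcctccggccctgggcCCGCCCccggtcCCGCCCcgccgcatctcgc

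CCAAT, on either strand, was found in 5 of the 10 promoters of the set (300 bases around the start site) and in 37.4% of 32851 promoters of the same length, and GGGCGG in 5 of 10 and in 35.7%. The cAMP-response letters TGACGTCA were found in 0 of 10 (1.79% of all promoters), and their shorter form TGACG, which lies within them, in 5 of 10 (20.8%). TGATGNAA, the amino acid response letters, occurred in 0 of 10 (3.97%), the E-box CACGTG in 0 of 10 (7.15%) and the D-box TTANGTAA in 1 of 10 (2.32%), a Pde4b start site. A match is a description, and no match says only that these letters are not in the window.

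Genes related to the 10 by family or pathway were then examined, from lists of 133 genes. In cerebellum 15 of 131 tested were called (11.5%, against 6.44% of all genes), 8 higher and 7 lower. In liver 7 of 122 were called (5.74% against 5.91%), 2 higher and 5 lower, and in testes 23 of 125 (18.4% against 20.5%), 12 higher and 11 lower. With consecutive libraries summed, 1 relative was called in cerebellum and 0 in liver and testes. Klhl25, Prkar2a, Robo1, Zfr, Abcd3 and Pex3 were the relatives called in 2 tissues. The median log2 change of the tested relatives was 0.00, 0.03 and 0.06 in the 3 tissues.

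In the guidance pathway of Srgap3, 4 of 10 tested relatives were called higher in cerebellum and 0 lower (3.93% and 2.51% of all genes). Slit1, a ligand of the Robo receptors, had a WT mean of 1.11 ± 0.252 CPM and a KO mean of 4.10 ± 1.92 CPM (SD, n = 4), which is 1.65 ± 0.340 higher on the log2 scale (SE, limma adjusted p = 0.0149). The receptors Robo1 and Robo2 rose by 0.48 ± 0.0513 and 0.41 ± 0.0568 (SE, log2, limma adjusted p = 3.06e-04 and 0.00148), and Arhgap4, a related GTPase-activating protein, by 0.54 ± 0.106 (SE, log2, limma adjusted p = 0.0117). In testes Robo1 and the ligand Slit2 rose by 0.42 ± 0.0841 and 0.63 ± 0.128 (SE, log2, limma adjusted p = 0.00788 and 0.00856), and Srgap1 fell by 0.22 on the log2 scale. The midbrain and forebrain marker sums given for Enc1 were higher in the same KO cerebellum libraries, and the Sertoli sums were higher and the spermatid sums lower in KO testes, where relatives of other genes named below changed as well. Their part was not tested.

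Among the peroxisomal relatives of Abcd2, Abcd3, the main peroxisomal acyl-CoA transporter, fell by 0.16 on the log2 scale in cerebellum and rose by 0.32 in testes (limma adjusted p = 0.036 and 0.016). Pex3, which inserts peroxisomal membrane proteins, fell by 0.30 in cerebellum and by 0.27 in testes. In liver Pex5 and Elovl1 fell by 0.25 and 0.44 (limma adjusted p = 0.0236 and 0.0125) while Abcd2 was higher. Of the cAMP genes, Prkar2a, a regulatory subunit of protein kinase A, fell in liver (-0.26 ± 0.0613, SE, log2) and testes (-0.21 ± 0.0656, SE, log2). Pde3a rose in cerebellum (0.29 ± 0.0531, SE, log2), and Pde4d, Adcy9 and Prkacb rose in testes (0.51, 0.49 and 0.29 on the log2 scale).

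The transport genes around Rangap1 were called one at a time: Ran higher in cerebellum (0.17 ± 0.0339, SE, log2), Sumo2, a ubiquitin-like modifier, higher in liver (0.48 ± 0.104, SE, log2), and Rcc1, the exchange factor of Ran, lower in testes (-0.37 ± 0.0722, SE, log2). For Ppm1k, the dehydrogenase subunits stayed outside the threshold, with Dld at 0.24 ± 0.0887 in liver and Bckdha at 0.19 ± 0.0737 in cerebellum (SE, log2, limma adjusted p = 0.136 and 0.137). Bcat1, the cytosolic transaminase of the same amino acids, rose in cerebellum by 0.29 ± 0.0396 (SE, log2, limma adjusted p = 0.00149), and Ppm1l fell in testes by 0.42 on the log2 scale. Of 12 tested chromatin relatives of Mysm1, 3 were called lower in cerebellum (2.51% of all genes), namely Brcc3, Rnf2 and Usp3, which fell by 0.28, 0.21 and 0.16 on the log2 scale, and the list's median was -0.04. In testes Usp22 rose by 0.45 and Stambpl1 fell by 0.29. Of the kelch relatives of Enc1, Klhl1 rose and Klhl9 fell in cerebellum and Klhl25 fell in liver. In testes Kbtbd2 and Klhl5 rose and Klhl25, Kbtbd7, Keap1 and Klhl32 fell, of 22 tested (9.74% higher and 10.7% lower among all genes). Zmynd8, a chromatin reader, rose in testes by 0.53 ± 0.130 (SE, log2).

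For each gene the most similar profile was sought over the 24 libraries, as Pearson's r of log2(CPM + 1) centred on the tissue mean, among genes tested in all 3 tissues. Enc1 was closest to Atf5 (r = 0.97), Srgap3 to Dpy19l3 (0.95), Ppm1k to Zfp871 (0.95), Abcd2 to Syne1 (0.94), Zfp532 to Gas7 (0.93), Arl5a to Atrx (0.93), Zmat1 to Lamp2 (0.93), Pde4b to Tigar (0.92), Mysm1 to Zkscan1 (0.92) and Rangap1 to Gorasp1 (0.85). Atf5 was higher in KO by 0.84, 0.21 and 0.12 on the log2 scale in cerebellum, liver and testes. Dpy19l3 changed by 0.10, -1.89 and 0.27 in the same order, so its sign in cerebellum was opposite to that of Srgap3. Within the set the closest pair was Ppm1k and Zmat1 (r = 0.92) and the most opposed Rangap1 and Zmat1 (r = -0.89). These values share libraries and depth, and contain the KO effect that chose the genes.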

How the data were processed

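RNA from cerebellum, liver and testes was sequenced with a stranded, ribosome-depleted total RNA kit and paired ends. The authors aligned reads with STAR and estimated abundance with RSEM on mm10, with gene models matching GENCODE M21. Values in the deposited table are RSEM expected counts for each gene, without normalization, and all 55450 identifiers matched that annotation. The version of either tool and the strand setting are not given in the sources used here. Library groups follow the labels (0 unmatched columns).

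Genes with at least 1 CPM in at least 4 of the 8 libraries of a tissue were quantile normalized and compared with limma-voom (limma 3.58.1, R 4.3.3), with Benjamini-Hochberg adjustment at 0.05. WT tissues were compared in 1 fit of all 24 libraries with TMM factors. Alternatives were TMM, edgeR 4.0.16 and DESeq2 1.42.0 on rounded counts, no CPM filter, sample quality weights, 1 fit of all libraries and each library left out. CPM without further scaling, removal of each library's loess trend on GC at codon position 3, sums of consecutive libraries, and cerebellum fits split or blocked by choroid plexus transcripts (over 100 CPM) were added after seeing the data. The members and the lists were chosen with earlier results of these data known. Named genes are the 10 members, the other genes called in all 3 tissues, called relatives, the closest profile of each member and genes at the threshold. Some items are not reported here. Dehydrogenase subunits were named after their values were seen. Depth limits precision at low levels, and counting error is only part of the spread shown. Figures were drawn with matplotlib 3.10.9.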

Additional observations from a re-analysis of the deposited data

Results flagged for a closer look

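A library stood far from the other 3 of its group, by Dixon's test at the 95% level, in 4 cases, and chance flags about 1 in 20 of the 60 groups examined (10 genes, 3 tissues, both genotypes). Enc1 was highest in testes WT replicate 2 at 31.6 CPM, against 28.3 to 28.7 CPM in the others. Rangap1 was lowest in the same library at 259 CPM (270 to 272 CPM in the others) and lowest in testes KO replicate 7 at 213 CPM (236 to 241 CPM). Zmat1 was lowest in liver WT replicate 1 at 1.64 CPM (2.43 to 2.52 CPM).

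For 6 genes every KO library lay above every WT library in 1 tissue and below in another. These differences between tissues were not tested, since the genes were chosen on them. On the log2 scale Rangap1 changed by 0.21 in cerebellum, -0.32 in liver and -0.18 in testes. Pde4b changed by 0.21 in cerebellum, -0.73 in liver and 0.22 in testes. Srgap3 changed by -0.16 in cerebellum, -2.24 in liver and 0.57 in testes. Zmat1 changed by -0.29 in cerebellum, 0.75 in liver and 0.49 in testes. For Abcd2 the values were -0.24, 1.17 and 0.43, and for Mysm1 -0.17, 0.32 and 0.20, in the same order.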

How the results depend on the processing

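No direction between KO and WT turned over under any alternative in the genes called in all 3 tissues or in the called relatives, but counts did move. The closest profiles, the genes just outside the threshold and the uncalled relatives were not included in this check. Between WT tissues 4 values changed sign. On CPM without further scaling, cerebellum minus liver became 0.17 for Rangap1 and 1.05 for Arl5a. The difference of Mysm1 between testes and liver, close to 0, ran from -0.041 (without liver WT replicate 4; -0.031 without testes WT replicate 1) to 0.022 with a library left out. Members called in all 3 tissues were 10 with DESeq2 and with sample quality weights, 8 with TMM, with edgeR and with the GC correction, 6 on CPM without further scaling, 2 without the CPM filter, 1 in the fit of all 24 libraries and 0 with consecutive libraries summed. Only the cerebellum libraries with choroid plexus transcripts gave 6, only those without gave 1, and their block gave 10. Leaving out 1 library gave 4 to 10, with 4 without cerebellum WT replicate 1, 3 or 4 or KO replicate 5 or 7, without liver WT replicate 1, or without testes WT replicate 3 or 4. Genes called in all 3 tissues were 48 with DESeq2, 69 with weights, 23 with the GC correction, 5 without the filter, 5 in the fit of all libraries, 4 in the cerebellum libraries without choroid plexus transcripts, 1 with consecutive libraries summed and 6 to 24 with a library left out. Genes called in cerebellum, liver and testes were 1757, 1705 and 6107 with weights. DESeq2 gave 1408 in liver, no filter 628 in cerebellum and 492 in liver, the fit of all libraries 147 and 1435, and CPM without further scaling 447 in liver. With consecutive libraries summed, which leaves fewer samples, they were 48, 10 and 1. Cerebellum had 402 in the libraries without choroid plexus transcripts and 1657 with their block. On CPM without further scaling testes had 3184 higher and 1536 lower, against 1882 and 2075 (TMM: 2166 and 2268). With a library left out the calls were 398 (without cerebellum WT replicate 1) to 2321 (without KO replicate 6), 292 (without liver WT replicate 1) to 798, and 1741 (without testes WT replicate 3) to 4931. Relatives called were 23, 18 and 43 with weights, 8, 4 and 11 without the filter, 15 in liver and 37 in testes with DESeq2, 5 in cerebellum and 19 in liver in the fit of all libraries, 3 in liver without further scaling, 1, 0 and 0 with consecutive libraries summed, 5 in the cerebellum libraries without choroid plexus transcripts, and 6 to 26, 2 to 8 and 8 to 27 with a library left out. The cause of the other shifts was not tested. Of the values of single genes under the alternatives, 1104 KO changes stayed on their side of the threshold and 516 lost the call. All of these were called in the main fit, so none could gain a call, and a missing adjusted p was counted as staying. Pairs of WT tissue and member called were 29 under most settings, 28 with edgeR and without the CPM filter, and 27 to 29 with a library left out. No paired analysis was possible because WT and KO libraries share no replicate number. WT tissues do share numbers, and a replicate block on the WT libraries gave 29 of 30. Deviations of same-numbered WT libraries of different tissues correlated between -0.212 and 0.190, as those of different numbers did (-0.246 to 0.283). Whether the numbers pair animals across tissues cannot be decided from this, since a weak shared signal would not show. KO libraries were not checked.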
